A study of Mus musculus with 6 samples.

Results

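The secretory genes of the epididymis and the seminal vesicle were followed through RNA-seq libraries of epididymal white adipose tissue (eWAT), the fat pad that lies along the epididymis of the male mouse. The members were chosen by gene symbol: protein-coding genes of the GENCODE M21 annotation named as beta-defensins (Defb), lipocalins (Lcn, without Lcn2), Crisp1 to Crisp4, Adam7, Adam28, seminal vesicle secretory proteins (Svs), Pate genes, Spink protease inhibitors, Rnase9, Rnase10 and Gpx5. The rule uses no measured value. It finds 83 genes among 21815 protein-coding genes and 54356 genes of all kinds. Crisp1, Svs5 and Adam7 served as markers of the set.

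The cold group held 3 mice (cold 7, cold 12 and cold 16), and the ctrl group held 3 mice (ctrl 5, ctrl 6 and ctrl 10). All 6 were wild-type C57BL/6N males of 20 weeks with no transgene named in the labels. The labels attach 1 treatment text to every library, which describes 24 h of single housing at 4 °C, and they give 22 to 24 °C as the general housing temperature. The control mice are taken from their ctrl label, and the sources used here do not say whether they were housed alone. Each number is the identifier of 1 mouse, and each library was made from the polyadenylated RNA of 1 whole frozen fat pad sample.

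Sperm leave the testis immature and gain their fertilising ability in the epididymis, a coiled duct whose initial segment, caput, corpus and cauda each secrete a set of proteins onto the passing sperm. Beta-defensins, CRISP proteins, lipocalins and SPINK inhibitors are leading products of that epithelium, and many of them are switched on in only part of the duct. The seminal vesicle is a separate gland that adds its SVS proteins at ejaculation, where they are cross-linked into the copulatory plug. Many genes of both organs depend on androgen.

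Promoter sequences of 6 members are shown because they carry the contrast that the values below describe: near-copies of the same promoter stand before genes that were read in very different amounts, or in the same library. Each run holds the 100 bases before the transcription start, 5′ to 3′ on the strand of the gene, from the RefSeq table of build GRCm38.p6. Capitals mark TATAAA, the core of a TATA box, where it begins within 40 bases before the start.
Crisp1: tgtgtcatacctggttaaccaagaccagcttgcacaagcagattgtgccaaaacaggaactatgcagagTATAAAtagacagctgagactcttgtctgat
Crisp3: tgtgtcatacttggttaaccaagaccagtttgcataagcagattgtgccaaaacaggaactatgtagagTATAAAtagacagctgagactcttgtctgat
Svs5: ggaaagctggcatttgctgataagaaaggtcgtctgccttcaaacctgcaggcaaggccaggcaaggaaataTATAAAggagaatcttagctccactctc
Svs6: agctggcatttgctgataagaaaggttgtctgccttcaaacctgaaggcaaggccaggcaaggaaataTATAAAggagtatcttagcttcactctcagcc
Svs3a: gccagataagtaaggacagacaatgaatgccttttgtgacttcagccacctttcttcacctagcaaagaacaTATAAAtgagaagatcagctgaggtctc
Svs3b: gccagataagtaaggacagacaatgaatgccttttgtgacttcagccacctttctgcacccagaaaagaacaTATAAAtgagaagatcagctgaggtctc
The runs lie at chr17:40319208-40319307 on the minus strand for Crisp1 and chr17:40242289-40242388 on the minus strand for Crisp3. They lie at chr2:164332665-164332764 on the plus strand for Svs5, chr2:164316651-164316750 on the plus strand for Svs6, chr2:164289167-164289266 on the plus strand for Svs3a and chr2:164256644-164256743 on the minus strand for Svs3b. The M21 annotation starts Svs5 at 164332740, so the end of its run falls inside the M21 gene.

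Over the 250 bases before the start, Crisp1 and Crisp3 were 95.6% identical, Svs3a and Svs3b 97.6%, and Svs5 and Svs6 93.3%. Svs4 and Svs5 shared 59.9% of aligned bases and Svs2 and Svs4 51.1%. The RefSeq table held a promoter for 56 of the 83 members. TATAAA on the strand of the gene, beginning within 40 bases before the start, was found in 11 of these 56 (19.6%) and in 2.31% of all 32851 promoters in the table. Of the 7 seminal vesicle members with a promoter, 5 held it: Svs3a, Svs3b, Svs4, Svs5 and Svs6. AGAACA or its reverse complement TGTTCT, the half-site of the androgen and glucocorticoid receptors, lay within the 250 bases in 26 of the 56 members (46.4%), 5 of the 7 seminal vesicle members among them, and in 16.1% of all promoters. Members were counted once per gene, whereas the table holds several promoters for some genes. Near-copies such as those of Svs3a and Svs3b each counted in the shares of members, so these are not independent. A match of letters is a description and shows no binding.

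Total estimated counts were between 22903050 and 28608052 in the cold libraries, and between 19735167 and 24176464 in the ctrl libraries. Adipocyte genes (Adipoq, Plin1, Lep, Cfd, Fabp4 and Cidec) summed to 30660 to 33330 CPM in cold and 29750 to 33830 CPM in ctrl libraries, where CPM is the count scaled to library size after TMM normalisation. The defining markers of the labelled tissue were thus abundant in all 6. By edgeR, Lep was higher in cold (log2 fold change 0.61, adjusted p = 0.0439) and Cfd lower (-0.59, adjusted p = 0.04378). In edgeR's fit of 17852 genes, 415 were higher and 101 lower in cold at an adjusted p under 0.05, which is 2.89% of the genes tested. Without cold 12, ctrl 6 or ctrl 10 no gene was called, so every call of this fit, Lep and Cfd among them, depends on those libraries. For the secretory genes, cold 7 and ctrl 10 stood apart from the other 4 libraries, and results are therefore given library by library and with and without these 2. In bulk tissue, fewer cells of a type and less RNA per cell cannot be told apart.

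Of the 83 members, 23 had no count in any library, 18 had counts that stayed under 5, and 42 reached 5 or more estimated counts in at least 1 library. The summed level of all members was 248.8 CPM in cold 7, 7.91 CPM in cold 12 and 7.59 CPM in cold 16, against 3.69 CPM in ctrl 5, 2.15 CPM in ctrl 6 and 188.9 CPM in ctrl 10. A single library of each group was thus far above the other 4, and the groups overlapped. Without TMM scaling, as a plain share of the library, members took 249.2 CPM in cold 7 (95% Wilson interval 242.8 to 255.8) and 187.1 CPM in ctrl 10 (181.2 to 193.3). These intervals, and the floor of 3 counts used below, cover counting error only.

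The high libraries did not hold the same genes. Of the 42 members with 5 or more counts, 28 had their highest CPM in cold 7, 3 in cold 16 (Defb29, Defb36 and Defb25) and none in cold 12. A further 9 were highest in ctrl 10, all of them seminal vesicle genes, 2 in ctrl 5 (Adam28 and Rnase10) and none in ctrl 6. In cold 7, 18 of the 28 had over 90% of their summed CPM in that 1 library, and in ctrl 10 all 9 did.

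**Figure D1:**
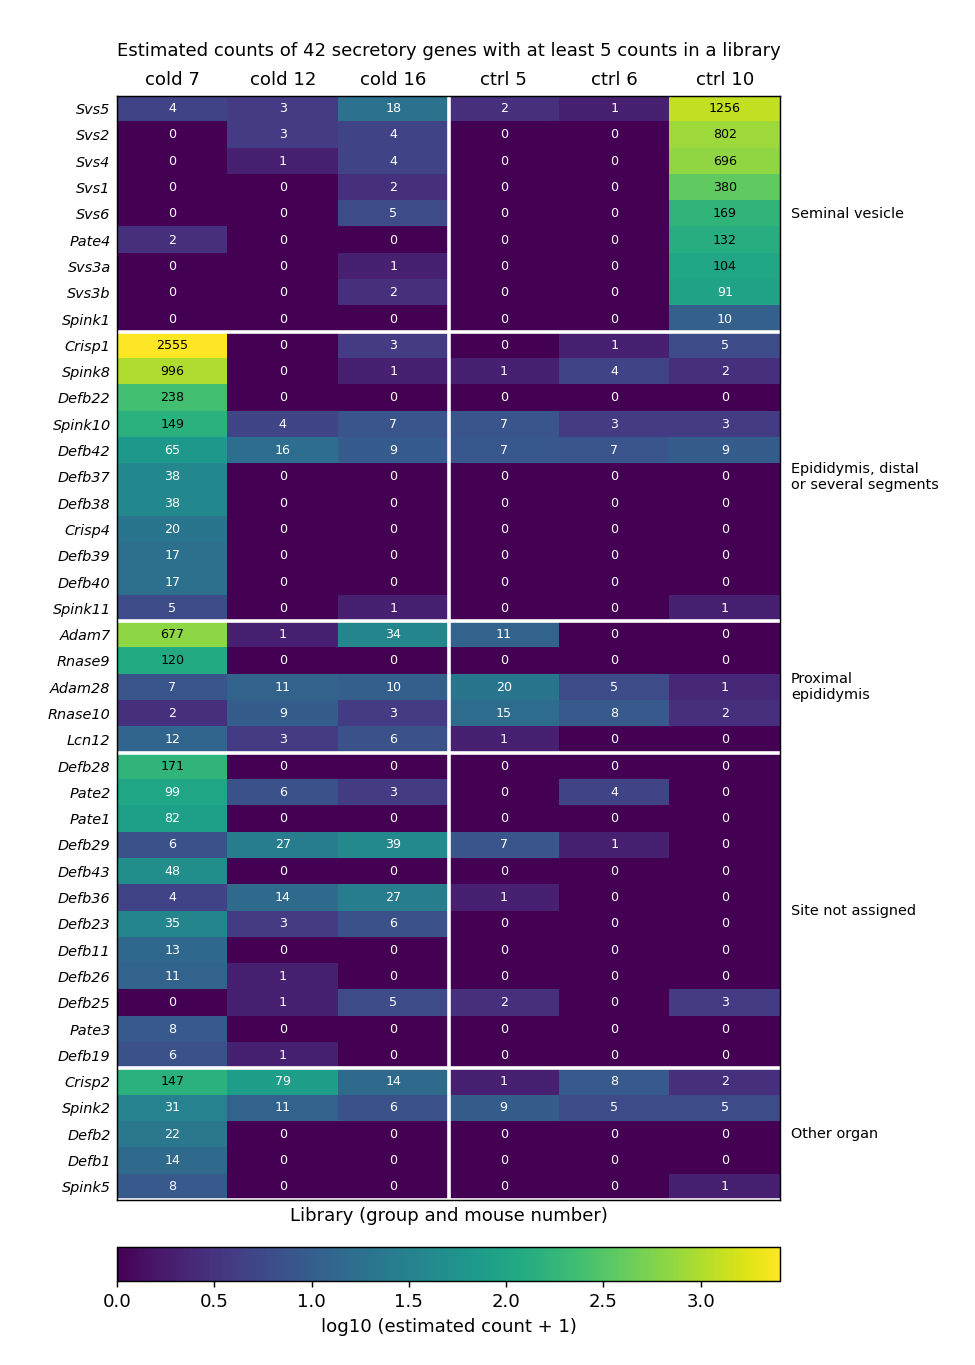
Estimated counts of the 42 members with 5 or more counts in a library, with genes down the page by known site and the 6 libraries across (cold left, ctrl right); the colour is log10 of the count plus 1 and the number in each cell is the count rounded to a whole number. The seminal vesicle block is bright in ctrl 10 and most epididymal rows are bright in cold 7, with 2554.6 counts of Crisp1 there.

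Among the epididymal members, the CRISP proteins come first. CRISP1 is a cysteine-rich glycoprotein that binds the sperm head and takes part in its fusion with the egg. Crisp1 had 2554.6 estimated counts in cold 7, 0 in cold 12 and 3 in cold 16, against 0 in ctrl 5, 1 in ctrl 6 and 5 in ctrl 10. It was high in cold 7 alone, and the other 5 libraries overlapped between the groups. On the per-length scale its level in cold 7 was 169.3 TPM, which placed it at rank 845 of all genes in that library. Its group levels were 37.3 ± 64.5 CPM in cold and 0.101 ± 0.137 CPM in ctrl (SD, n = 3 each), so the spread within cold exceeded the mean. Crisp4, an epididymal relative, had 20 counts in cold 7 and 0 in the other 5 libraries. Crisp3, known from salivary gland and other exocrine tissue, had 1 count in cold 16 and 0 elsewhere, although its promoter nearly repeats that of Crisp1. Of 50-nt stretches of Crisp1 transcripts, 2.41% occur in Crisp3 transcripts, so little of the Crisp1 count could be shared with its neighbour.

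ADAM7 is a membrane protein without protease activity that the caput epididymis passes to sperm. Adam7 had 677.1 counts in cold 7, 1 in cold 12 and 34 in cold 16, against 11 in ctrl 5 and 0 in both ctrl 6 and ctrl 10. Cold 7 was highest and cold 16 came next, while cold 12 lay below ctrl 5, so the groups overlapped. Adam7 is 1 of only 3 members that passed the low-count filter of the fit, and it did not pass the test (Benjamini-Hochberg adjusted p = 0.3328 in edgeR's quasi-likelihood test). Its log2 fold change was 5.92 with an SE of 2.54. Without cold 7 the estimate was 1.91.

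Adam28, its neighbour on chromosome 14, showed another pattern. It had 6.7, 11.3 and 9.8 counts in cold 7, cold 12 and cold 16, against 20, 5.2 and 1.4 in ctrl 5, ctrl 6 and ctrl 10. Its values in the cold libraries lay inside the range of the ctrl libraries.

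SPINK proteins are Kazal-type inhibitors of serine proteases, and several are made by the epididymal epithelium. Spink8 had 996.4 counts in cold 7, 0 in cold 12 and 1 in cold 16, against 1, 4 and 2 in ctrl 5, ctrl 6 and ctrl 10. Cold 7 was the only high library, with 143.1 TPM and rank 1005 there. Of the Spink8 counts in cold 7, 648.5 were assigned to transcript Spink8-202 and 337.6 to Spink8-201. Spink10 had 148.5, 4.1 and 6.9 counts in cold 7, cold 12 and cold 16, against 7, 2.9 and 2.9 in ctrl 5, ctrl 6 and ctrl 10. Spink10 was thus present at a few counts in all 6 libraries and high in 1. Spink11 reached 5 counts in cold 7, Spink5, known from skin, had 8 in cold 7 and 1 in ctrl 10, and Spink12 had none in any library.

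Together the 28 epididymal members summed to 217.1, 1.78 and 2.63 CPM in cold 7, cold 12 and cold 16, against 2.78, 1.26 and 1.36 CPM in ctrl 5, ctrl 6 and ctrl 10. Outside cold 7 the values of the groups overlapped, and cold 12 and cold 16 both lay below ctrl 5. Within cold 7, Crisp1 made up 51.5% of the epididymal counts (Wilson 95% interval 50.1 to 52.9), Spink8 20.1% and Adam7 13.7%.

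The proximal part of the duct was represented unevenly. Of 12 members known from the initial segment or caput, 5 reached 5 counts in a library. Rnase9, a member of the RNase A family that is made in the epididymis, had 120.2 counts in cold 7 and 0 in the other 5 libraries. Rnase10, a relative needed for sperm to pass into the oviduct, had 2, 9 and 3 counts in cold 7, cold 12 and cold 16, against 15, 8 and 2 in ctrl 5, ctrl 6 and ctrl 10. All 15 counts in ctrl 5 were assigned to transcript Rnase10-201, which had 0 in the other libraries. The lipocalin Lcn12 had 12, 3 and 6 counts in cold 7, cold 12 and cold 16, against 1, 0 and 0 in ctrl 5, ctrl 6 and ctrl 10. Every cold library was above every ctrl library for Lcn12, at levels near the floor.

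The best-known caput products were at or near zero in every library. Gpx5, the secreted glutathione peroxidase of the caput, had 1 count in ctrl 5 and 0 in the other 5 libraries. Lcn8 had 1 count in cold 7 and 2 in ctrl 5, Lcn5 had 1 in ctrl 10, and Lcn6 had 1 in ctrl 5. Lcn9, Lcn10 and Defb41 had 0 counts in all 6. A count of 0 allows up to 3 counts, a level between 0.105 and 0.154 CPM depending on the library. Cold 7, with 2554.6 counts of Crisp1, therefore held no detectable Gpx5, Lcn5, Lcn6, Lcn9 or Lcn10 at this depth. Over all lipocalin members, 1 of 9 reached 5 counts and 3 had none.

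Beta-defensins are small cationic antimicrobial peptides, and in the epididymis several of them coat sperm. They form the largest family here, with 42 members, of which 17 reached 5 counts and 16 had none. Of the 17, 14 were highest in cold 7 and 3 in cold 16. Defb22, whose product is part of the sperm surface coat, had 238 counts in cold 7 and 0 in the other 5 libraries. Defb28 had 170.8 counts in cold 7 and 0 in the other 5. Per length, their levels in cold 7 were 28.9 TPM for Defb22 and 47.7 TPM for Defb28, so the gene with fewer counts had the higher level for its length. Defb38, also among the 10 members with the highest mean TPM, had 37.8 counts in cold 7, a level of 24.96 TPM, and 0 counts in the other 5 libraries.

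The 4 chromosomal groups of beta-defensins differed in how many of their genes were read. On chromosome 2, between 152459055 and 152623053, 8 of 11 members reached 5 counts and none was at 0 throughout. On chromosome 14, from 62977524 to 63058149, 2 of 5 did so, Defb43 with 48 counts in cold 7 and 0 elsewhere, and Defb42. On chromosome 8, 7 of 24 did so and 14 had no count; the 7 were Defb37, Defb38, Defb39, Defb40, Defb1, Defb2 and Defb11, with 13.3 to 38.2 counts in cold 7 and 0 in every other library. Between 16.9 and 20.7% of the 50-nt stretches of Defb2, Defb10 and Defb11 recur in relatives, so the split of counts among those is uncertain. The 2 members on chromosome 1 had no count.

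Neighbours within the chromosome 2 group did not follow a common order of libraries. From the start of the cluster, Defb23 had 35, 3 and 6 counts in cold 7, cold 12 and cold 16 and 0 in all ctrl libraries. Defb22, Defb26 and Defb28 were read in cold 7, with 238, 11 and 170.8 counts, and at most 1 count elsewhere. The next gene, Defb29, had 6, 27 and 39 counts in cold 7, cold 12 and cold 16, against 7, 1 and 0 in ctrl 5, ctrl 6 and ctrl 10. Defb29 was thus highest in cold 16 and lowest among the cold libraries in cold 7, the reverse of its neighbour Defb28. Defb36 had 4, 14 and 27 counts in cold 7, cold 12 and cold 16, against 1, 0 and 0 in ctrl 5, ctrl 6 and ctrl 10. Every cold library was above every ctrl library for Defb36, and cold 7 was the lowest of the cold libraries. Defb19, which lies between Defb29 and Defb36, had 6 counts in cold 7 and 1 in cold 12. Defb25, at the far end, had 0, 1 and 5 counts in cold 7, cold 12 and cold 16, against 2, 0 and 3 in ctrl 5, ctrl 6 and ctrl 10.

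**Figure D2:**
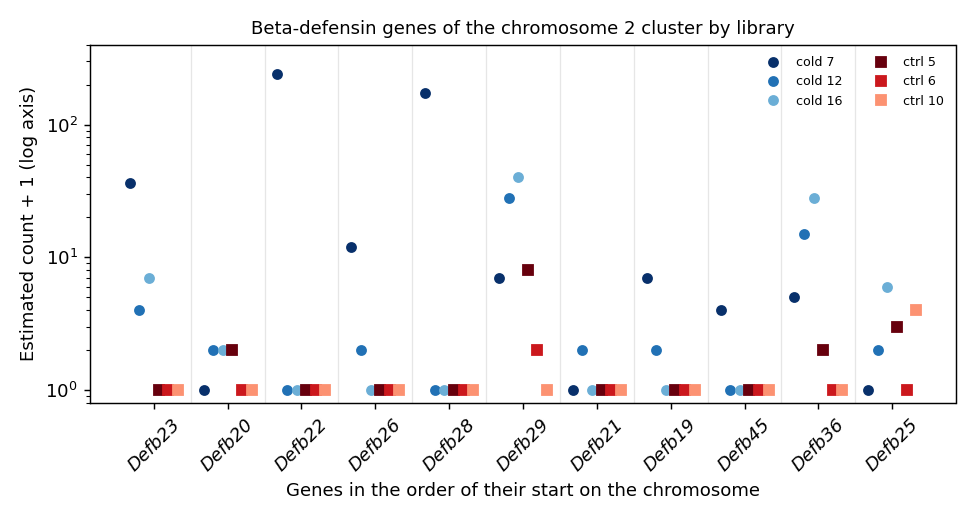
Estimated counts plus 1 (log axis) of the 11 beta-defensin members of chromosome 2, in the order of their starts, with cold libraries as blue circles left of the ctrl libraries as red squares. Defb22 and Defb28 stand high in cold 7 alone (238 and 170.8 counts), and Defb29 and Defb36 stand highest in cold 16 (39 and 27 counts).

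Defb42 was the beta-defensin that passed the low-count filter. It had 65.4, 15.9 and 8.7 counts in cold 7, cold 12 and cold 16, against 7.3, 7 and 9.1 in ctrl 5, ctrl 6 and ctrl 10. Cold 7 was highest, and cold 16 lay below ctrl 10. The log2 fold change was 1.81 with an SE of 0.84 (edgeR, adjusted p = 0.339), and 0.41 without cold 7. Its coding transcript Defb42-201 had 55.5, 7 and 2 counts in cold 7, cold 12 and cold 16, against 1, 0 and 0 in ctrl 5, ctrl 6 and ctrl 10. The non-coding transcript Defb42-204 had 2.4, 8.9 and 6.7 counts in the same cold libraries, against 6.3, 7 and 9.1 in the ctrl libraries. Most Defb42 counts outside cold 7 were therefore assigned to the non-coding transcript. With an offset for transcript length, the estimate was 3.70 and was not called (adjusted p = 0.2028).

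PATE proteins are small cysteine-rich proteins of the Ly6 family that reach sperm from the male tract. Their 4 members lie together on chromosome 9 and split between the high libraries. M21 gives Pate2, on the plus strand, the span from 35570284 to 35690318, and Pate4, Pate3 and Pate1 lie inside it on the minus strand. Pate2 had 99, 6 and 3 counts in cold 7, cold 12 and cold 16, against 0, 4 and 0 in ctrl 5, ctrl 6 and ctrl 10. Pate1 had 82 counts and Pate3 had 8 in cold 7, with 0 in every other library. Pate4, whose product is also known as SVS7 of the seminal vesicle, had 2 counts in cold 7 and 0 in cold 12 and cold 16, against 132 in ctrl 10 and 0 in ctrl 5 and ctrl 6. Pate4 was thus high in ctrl 10, where Pate1, Pate2 and Pate3 were at 0. About as many Pate1 counts were assigned to its retained-intron transcript Pate1-202, at 41.3, as to the coding Pate1-201, at 40.7.

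The seminal vesicle genes had a single high library, ctrl 10. SVS5 is a small secretory protein of the gland. Svs5 had 4, 3 and 18 counts in cold 7, cold 12 and cold 16, against 2, 1 and 1255.5 in ctrl 5, ctrl 6 and ctrl 10. Ctrl 10 was high and all 3 cold libraries lay above the 2 other ctrl libraries, so the groups overlapped. The group levels were 0.307 ± 0.280 CPM in cold and 21.5 ± 37.2 CPM in ctrl (SD, n = 3 each). On the per-length scale its level in ctrl 10 was 191.9 TPM, rank 709 in that library and the highest of all members in any library.

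The other genes of the Svs cluster behaved alike. Svs2 encodes a major protein of the copulatory plug. It had 0, 3 and 4 counts in cold 7, cold 12 and cold 16, against 0, 0 and 802 in ctrl 5, ctrl 6 and ctrl 10. Svs4, which codes for a small basic protein, had 0, 1 and 4 counts in the cold libraries in the same order, against 0, 0 and 695.6 in the ctrl libraries. Svs6 had 0, 0 and 5 counts in the cold libraries and 0, 0 and 169.2 in the ctrl libraries. In each, ctrl 10 was high, cold 16 followed at a few counts, and ctrl 5 and ctrl 6 were at 0. Levels in ctrl 10 were 95.5 TPM for Svs4, 37.6 TPM for Svs2 and 31.4 TPM for Svs6, so Svs4 stood above Svs2 per length although it had fewer counts.

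Svs3a and Svs3b, near-copies of a plug protein gene, had 1 and 2 counts in cold 16, against 103.6 and 91.4 in ctrl 10, with 0 elsewhere. Since 42.4% of the 50-nt stretches of Svs3b recur in Svs3a, the split between them is uncertain. These 6 genes lie within 98.5 kb on chromosome 2, between 164235929 and 164334396, in the order Svs2, Svs3b, Svs4, Svs3a, Svs6 and Svs5. Svs1, a relative of amine oxidases on chromosome 6 and outside the cluster, had 2 counts in cold 16, against 380.1 in ctrl 10, and 0 in the other 4. Spink1, a trypsin inhibitor made in the pancreas and the seminal vesicle, had 0 counts in the 3 cold libraries, against 10 in ctrl 10 and 0 in ctrl 5 and ctrl 6.

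The 9 seminal vesicle members summed to 0.263, 0.275 and 1.26 CPM in cold 7, cold 12 and cold 16, against 0.0826, 0.0447 and 186.9 CPM in ctrl 5, ctrl 6 and ctrl 10. Without ctrl 10, every cold library was above the remaining ctrl libraries, at levels that rest on 36 counts in cold 16 and fewer in the others. Svs5 made up 50.0% of the 36 seminal vesicle counts in cold 16 (Wilson 95% interval 34.5 to 65.5). In ctrl 10 it made up 34.5% (33.0 to 36.1). In cold 7, the library richest in epididymal genes, Svs1, Svs2, Svs3a, Svs3b, Svs4 and Svs6 had 0 counts. In ctrl 10 the epididymal members summed to 1.36 CPM, within the range of the other libraries besides cold 7.

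**Figure D3:**
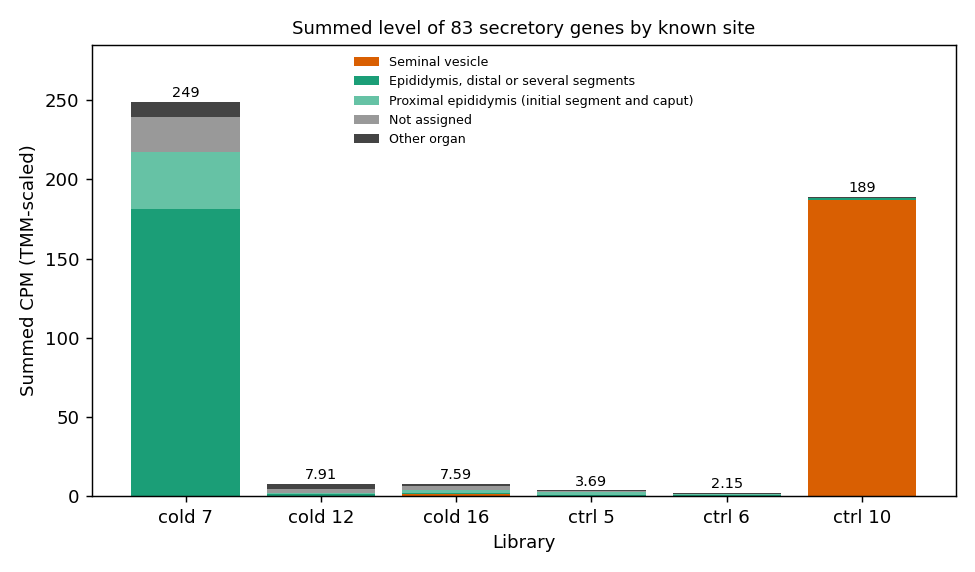
Summed CPM of all 83 members in each library (bars from 0, cold left, ctrl right), divided by the known site of the genes. Cold 7 (249 CPM) is filled by epididymal and unassigned genes and ctrl 10 (189 CPM) almost wholly by the 9 seminal vesicle genes, while the other 4 libraries lie between 2.15 and 7.91 CPM.

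Of the 18 members known mainly from other organs, 5 reached 5 counts, and all 5 were highest in cold 7. Defb1, Defb2 and Spink5 were given above, and Crisp2 and Spink2 were also read in other libraries. CRISP2 is a component of the sperm acrosome and tail that is made in spermatids. Crisp2 had 147, 79 and 14 counts in cold 7, cold 12 and cold 16, against 1, 8 and 2 in ctrl 5, ctrl 6 and ctrl 10. Every cold library was above every ctrl library. Its level was 3.34 ± 2.98 CPM in cold and 0.167 ± 0.168 CPM in ctrl (SD, n = 3 each). edgeR put the log2 fold change at 4.27 with an SE of 1.15 and an adjusted p of 0.1182, which does not pass the threshold. DESeq2 gave 4.33 and an adjusted p of 0.0001423. In cold 7 and cold 12 most counts were assigned to transcript Crisp2-201 (132.4 and 68), whereas all 14 in cold 16 were assigned to Crisp2-207.

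Spink2, which inhibits acrosin in the acrosome, had 31, 11 and 6 counts in cold 7, cold 12 and cold 16, against 9, 5 and 5 in ctrl 5, ctrl 6 and ctrl 10. The groups overlapped in ctrl 5. Genes of spermatids (Prm1, Prm2, Tnp1, Tnp2, Odf1, Akap4 and Smcp) summed to 57.6, 48.7 and 3.74 CPM in cold 7, cold 12 and cold 16, against 0.0826, 3.98 and 1.34 CPM in ctrl 5, ctrl 6 and ctrl 10. Of the 7, 4 were tested and none was called, with a median log2 fold change of 4.37, against -0.0127 over all genes. Prm1, Tnp1 and Tnp2 were highest in cold 12, at 9.61, 4.17 and 7.79 CPM, and Odf1, Akap4 and Smcp in cold 7. Prm2 was highest in cold 7 at 21.9 CPM and lowest in ctrl 5 at 0. Crisp2 also had its highest levels in cold 7 and cold 12 and its lowest in ctrl 5, and the part of germ cell RNA in its result was not tested.

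Between cold and ctrl as groups, none of the 3 members in edgeR's fit passed the threshold, where 2.89% of all 17852 genes did (2.32% as higher in cold). Of the 3, 1 (Crisp2) had an unadjusted p under 0.05, as did 3148 of the 17852 genes. Crisp2 passed the low-count filter only through its cold counts. The other 80 members did not pass the low-count filter, so no statement about the whole set can be drawn from these 3. With no filter 60 members could be tested and 1 was called, Defb36 (log2 fold change 4.81, adjusted p = 0.006053), where 2.65% of 34880 genes were (2.0% as higher in cold). DESeq2 was given 60 members among 34880 genes and called 3 members, Crisp2, Defb23 and Defb36, all higher in cold. Of the 21979 genes to which it gave an adjusted p, 6.51% were called (5.15% as higher in cold). How many of the 60 members are among those 21979 is not given, so the bases of the 2 shares differ. Without cold 7, edgeR called 1 of 7 members tested, Defb36 (log2 fold change 5.22, SE 0.87, adjusted p = 0.01594), where 5.91% of genes were called (5.03% as higher in cold). Without both cold 7 and ctrl 10, edgeR called Defb36, 1 of 5 members tested (log2 fold change 4.84, SE 0.93, adjusted p = 0.03593), where 4.11% of genes were called (3.65% as higher in cold). It did not call Defb36 without ctrl 5 (adjusted p = 0.1008), where 3.75% of genes were called (3.5% as higher in cold). Without ctrl 6 (0.164) and without ctrl 10 (0.1702) it did not call Defb36 either, and 0.0% of genes were called. The level of Defb36 was under 1 CPM in every library. With a library left out, it passed the filter only through cold 12 and cold 16 (14 and 27 counts). It had 1 count in ctrl 5 and 0 in ctrl 6 and ctrl 10. Cold 7 held its lowest cold count, 4, so leaving cold 7 out raised its cold mean. The fit without cold 7 and ctrl 10 was chosen after seeing the data and reuses libraries of the fit without cold 7. Its call is therefore not separate support.

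Counted by order alone, 4 of the 42 members with 5 or more counts had every cold library above every ctrl library (Crisp2, Defb36, Defb23 and Lcn12), where 12.5% of 23685 genes did. None had every cold library below every ctrl library, where 9.12% of genes did. Both counts of members lie near or below the background.

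The summed levels had no stable direction between groups. For all members the log2 ratio of the group means, cold over ctrl, was 0.44 and became -3.07 without cold 7 and 4.92 without ctrl 10. For the seminal vesicle members it was -6.70 and became 3.23 without ctrl 10. For the epididymal members it was 5.36 and became 0.30 without cold 7.

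Genes of other cell types that the samples could hold were read beside the members. The epithelial junction and keratin list summed to 144, 230 and 210 CPM in cold 7, cold 12 and cold 16, against 60.8, 17.2 and 41.0 CPM in ctrl 5, ctrl 6 and ctrl 10. Of its 9 tested genes, 3 rose in cold: Cdh1, the cadherin of epithelial junctions, with a log2 fold change of 4.25, and the claudins Cldn3 (2.25) and Cldn4 (3.39). The rest were not called, with log2 fold changes from 0.60 (Krt19) and 1.12 (Krt14) up to 3.93 (Epcam). Of all 17852 genes tested, 2.32% were called higher in cold. Duct transport and Wolffian genes summed to 56.6, 139.8 and 122.4 CPM in the cold libraries in the same order, against 24.2, 5.27 and 8.68 CPM in the ctrl libraries. Of these 11, all tested, 4 rose in cold: Slc34a2, a phosphate transporter, by 5.52 on the log2 scale, Lhx1, a transcription factor of the Wolffian duct, by 4.17, Amn by 3.02 and Cftr, the chloride channel, by 2.36. Those not called ranged from 0.01 (Cubn) and 0.30 (Aqp5) to 4.44 (Pax2), and the groups overlapped for Cubn and Aqp5.

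Motile cilium genes summed to 57.4, 166.8 and 140.3 CPM in cold 7, cold 12 and cold 16, against 26.7, 7.30 and 6.22 CPM in ctrl 5, ctrl 6 and ctrl 10. Of 8 tested, Tekt1, Rsph1 and Ccdc39 rose in cold, with log2 fold changes of 4.07, 3.06 and 1.69. In each of these 3 lists every cold library was above every ctrl library, and cold 12 was the highest. The 10 genes named as having risen in these lists had adjusted p-values between 0.02259 and 0.04964 by edgeR, and without cold 12, ctrl 6 or ctrl 10 no gene was called. The epididymal secretory genes were not highest there: cold 12 had 0 counts of both Crisp1 and Spink8, and 1 of Adam7. In ctrl 10, where the seminal vesicle genes were high, the motile cilium sum was the lowest of all.

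**Figure D4:**
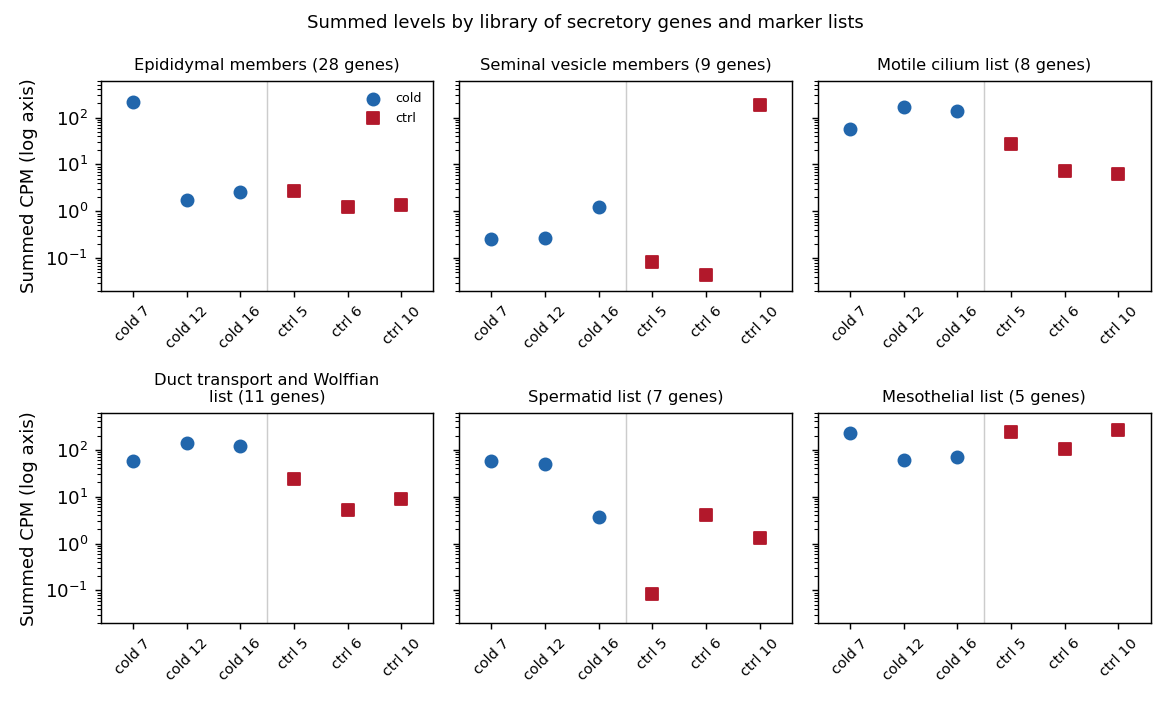
Summed CPM (log axis) in each library of the 28 epididymal members, the 9 seminal vesicle members and 4 marker lists, with cold libraries as blue circles and ctrl libraries as red squares. The epididymal members peak in cold 7 (217.1 CPM) and the seminal vesicle members in ctrl 10 (186.9 CPM), whereas the cilium and duct lists peak in cold 12 (166.8 and 139.8 CPM).

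A list of 16 other epididymal genes summed to 119, 130 and 125 CPM in cold 7, cold 12 and cold 16, against 23.9, 6.26 and 4.38 CPM in ctrl 5, ctrl 6 and ctrl 10. Of its 5 tested genes Aqp9, a water and glycerol channel that liver and fat also make, rose by 1.96 on the log2 scale (edgeR, adjusted p = 0.02259). Teddm2 was flat, with 65.1, 42.5 and 72.3 counts in cold 7, cold 12 and cold 16, against 65.2, 53.1 and 42.2 in ctrl 5, ctrl 6 and ctrl 10. Its log2 fold change was -0.04 (edgeR, adjusted p = 0.9659). Within that list, Wfdc10 had 218.6 counts in cold 7 and at most 1 elsewhere, and Bsph2, a sperm-binding protein, had 42 in cold 7 and at most 1 elsewhere. Eppin, a protease inhibitor on the sperm surface, had 67.7, 21 and 14.1 counts in cold 7, cold 12 and cold 16, against 5, 0 and 0 in ctrl 5, ctrl 6 and ctrl 10, and was not called (adjusted p = 0.1182). Cst11, Bsph1 and Ovch2 had no count in any library. Cuzd1, the most abundant of the list in the cold libraries, had 79.8, 68.2 and 70.7 CPM in cold 7, cold 12 and cold 16, against 10.9, 1.34 and 0.103 CPM in ctrl 5, ctrl 6 and ctrl 10, and was not called (adjusted p = 0.1188). Cdh16 had 12.1, 47.5 and 42.2 CPM in the cold libraries, in the same order, against 6.64, 0.671 and 0.0513 CPM in the ctrl libraries. It was not called by edgeR either (adjusted p = 0.1967). Cuzd1 and Cdh16 together made up most of the list's sum in every cold library. Cst8 had 25, 6 and 1 counts in the cold libraries, against 0, 0 and 1 in the ctrl libraries. Cst12 had 11 counts in cold 7 and 0 elsewhere. Ros1 had 6, 3 and 5 counts in the cold libraries and at most 1 in a ctrl library. Narrow and clear cell genes of the epididymis summed to 10.6 to 16.2 CPM in cold and 5.86 to 12.8 CPM in ctrl libraries, with 0 of 3 tested genes called. The log2 fold changes of the 3 were -0.48 for Atp6v0d2, 0.75 for Car12 and 2.41 for Atp6v0a4. Of the genes not tested, Foxi1 had 5 counts in cold 7 and 0 elsewhere. Atp6v1b1 had 5, 1 and 0 counts in the cold libraries, against 2, 2 and 0 in the ctrl libraries.

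Other seminal vesicle genes, none of which passed the low-count filter, were read partly in cold 7, and in ctrl 10. Ceacam10, a glycoprotein secreted by the gland, had 154.3, 0 and 3.1 counts in cold 7, cold 12 and cold 16, against 0, 0 and 167.4 in ctrl 5, ctrl 6 and ctrl 10. Sva, a sperm-binding seminal vesicle protein, had 1 count in cold 16, against 60 in ctrl 10, and 0 elsewhere. Spinkl had 6 counts in cold 7 and 1 in cold 16, against 38 in ctrl 10, and 0 elsewhere. Ceacam10 was thus high in both libraries while Sva and the Svs genes were high in ctrl 10 alone.

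The 8 prostate and coagulating gland genes summed to 5.73, 15.6 and 16.98 CPM in cold 7, cold 12 and cold 16, against 2.17, 1.71 and 1.56 CPM in ctrl 5, ctrl 6 and ctrl 10. Of these, Hoxb13, Sbp and Sbpl had no count and Pbsn had 1 count, in ctrl 10. Msmb had at most 2 counts in a library, and Tgm4, the transglutaminase of the copulatory plug, had 17 to 32.5 counts in cold and 21.5 to 31.2 in ctrl libraries. Tmprss2, an epithelial protease with a wide range of tissues, was the 1 of 2 tested that rose in cold, by 4.22 on the log2 scale (edgeR, adjusted p = 0.04802). It made up most of the sum in every cold library. Akr1b7, a gene of the vas deferens that fat also makes, had 30, 0 and 6 counts in cold 7, cold 12 and cold 16, against 18, 6 and 0 in ctrl 5, ctrl 6 and ctrl 10. Leydig and Sertoli cell genes summed to 38.0 to 49.1 CPM in cold and 21.5 to 27.9 CPM in ctrl libraries, with 0 of 3 tested called. Of these 3, Sox9 had 12.8, 32.5 and 35.3 CPM in the cold libraries, against 11.7, 6.74 and 8.85 CPM in the ctrl libraries. The groups overlapped for Insl3 (8.73 to 13.4 CPM in cold, 7.67 to 10.25 in ctrl) and Star (4.69 to 8.73 and 3.98 to 8.34). Cyp17a1 had 48, 6 and 7 counts in the cold libraries, against 3, 6 and 1. Mesothelial genes, which mark the covering of the pad, summed to 229.5, 60.5 and 68.5 CPM in cold 7, cold 12 and cold 16, against 235, 102.5 and 262 CPM in ctrl 5, ctrl 6 and ctrl 10, with 0 of 5 called. The part of these cell types in the levels of the secretory genes was not tested.

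By a rule over protein-coding genes with a mean of 5 CPM or more, the non-members most like the summed members over the 6 libraries were Pdia6, Lrrk2, Flt4, Actr2 and Sept11, with Pearson r of log2 CPM between 0.975 and 0.995. Their own levels spanned only 1.14 to 1.47-fold, and 2 of the 6 points are the high libraries cold 7 and ctrl 10. These are the highest values of a search over all such genes, and the likeness was not tested.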

How the data were processed

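Strand-specific paired-end libraries of 50 nt reads were made from eWAT of 6 mice, per the labels' protocols. The tools were bcl2fastq, cutadapt and Salmon and the build was GRCm38, per the submitters' processing notes. No version is given in the sources used here for these tools. The authors deposited, per library, Salmon's estimated counts, which divide shared reads among transcripts and need not be whole, with TPM, a level scaled for length and depth.

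Of 140658 transcripts, 139921 matched GENCODE M21 with their version and 140137 without it. The 521 others (0.124 to 0.394% of counts) were left out. Estimated counts were summed per gene and rounded for the tests. Deposited TPM was summed per gene and used for levels between genes.

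Genes were tested with edgeR 4.0.16 in R 4.3.3: filterByExpr (minimum count 10, in 3 libraries, total 15), TMM, robust glmQLFit and glmQLFTest, two-sided, with Benjamini-Hochberg adjustment and a threshold of 0.05. The SE given for edgeR is the absolute log2 fold change divided by the square root of the test's F statistic, not a separately fitted error. An exact permutation test of 3 against 3 libraries cannot go below 0.10. Alternatives were RLE size factors, no filter, a transcript length offset, DESeq2 1.42.0, summed TPM and each library left out. Only the edgeR step was run on simulated counts, with genes changed alike in all cold libraries. Genes high in a single library were not simulated. Pairs of libraries in a group differed by more than counting noise, with chi-square values per degree of freedom of 12.2 to 33.2. No label gives a batch.

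The members and marker lists were chosen with earlier results of these data known. Members in the fit, members called, the 3 markers and the 10 with the highest mean TPM were given in every library, and other members with 5 or more counts by value or range. Up to 4 genes with the smallest p were named per list. Other list genes, transcripts and neighbours were named after their values were seen. Known sites of members are background knowledge: 9 seminal vesicle, 12 proximal epididymis, 16 distal or several segments, 18 another organ and 28 not assigned. One gene of a marker list is not reported here.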

Additional observations from a re-analysis of the deposited data

How the results depend on the processing

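The count of all genes called by edgeR was 516, 526 with RLE size factors, 410 with the length offset, 924 with no filter and 1430 by DESeq2. Leaving out 1 library gave 0 to 1090, with 0 without cold 12, ctrl 6 or ctrl 10, 3 without cold 16, 695 without ctrl 5 and 1090 without cold 7. The members called were 0, and also 0 with RLE size factors or the length offset, 1 with no filter, 3 by DESeq2 and 0 to 1 with a library left out. Leaving out cold 7 and ctrl 10 together, an alternative chosen after seeing the data, gave 748 genes and 1 member, Defb36 (adjusted p = 0.03593). The same alternative gave log2 ratios of summed CPM of 1.41 for all members, 3.59 for the seminal vesicle members and 0.13 for the epididymal members. With 1 library left out these ran from -3.07 to 4.92, from -7.86 to 3.23 and from 0.30 to 5.93. RLE size factors, summed TPM and leaving out the member with the highest mean count kept the direction, except that all members without Crisp1 gave -0.35. Adam7, Crisp2 and Defb42 kept their direction in each alternative run, and of these Crisp2 was called by DESeq2 alone. No paired analysis was possible because the mouse numbers are not shared between groups. Depth limits every member outside cold 7 and ctrl 10, where most had under 40 counts.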

Other observations

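Genes that were high in 1 library were also counted without the symbol rule, as protein-coding genes with 50 or more estimated counts in a library and at least 10 times the CPM of every other library. There were 30 such genes in cold 7, of which 9 are members, and 9 in ctrl 10, of which 8 are members. The other 4 libraries had 0. The ninth gene of ctrl 10 was Sva, a seminal vesicle protein. The 21 other genes of cold 7 included further products known from the epididymis. Ces5a, a secreted carboxylesterase, had 802.6 counts in cold 7 and at most 5.4 in the other libraries. The whey acidic protein family member Wfdc13 had 335 counts in cold 7, 2 in cold 16 and 0 elsewhere. Lactoferrin, Ltf, an iron-binding protein of secretions, had 240, 4 and 2 counts in cold 7, cold 12 and cold 16, against 0 in every ctrl library. Serpina1f and Spint3, both protease inhibitor genes, had 208 and 125 counts in cold 7 and 0 in the other 5 libraries. These genes were named after their values were seen, and they are only some of the 21. Others in cold 7 were Serpina16 (628.6 counts), Gm20388 (501.9), Npy (232), Atp2b3 (123), Piwil1 (117.2) and Syce1 (59). Piwil1 also had 11 counts in cold 12. The named genes therefore do not give the 21 as a whole a common site.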
